A study of Mus musculus with 24 samples.

Results

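The comparison asked whether the difference between fat next to a breast tumor and fat labelled as having no tumor depended on diet. It took 16 of the series' 24 libraries, all of subcutaneous fat from the 4th mammary gland of C57BL/6 mice, chosen by the diet and sample type in their labels, and used every gene that passed a filter on low counts. The 4 groups had 4 libraries each: peritumoral fat of mice on the diet labelled HFD, no-tumor fat of HFD mice, peritumoral fat of mice fed Chow, and no-tumor fat of Chow-fed mice. The series describes the mice as lean and obese; the labels give no genotype beyond the strain, and the tumor model, the animals' sex and age and the time on the diet are not given in the sources used here. Peritumoral titles carry the letter L and no-tumor titles the letters NT and R, so closeness to a tumor, bearing a tumor at all and side of the body cannot be told apart in any value below. No label says that libraries of 1 group are different animals; the p-values rest on how far these libraries vary, and that variation may be technical.

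Fat holds lipid-filled adipocytes together with macrophages, fibroblasts, blood vessels and nerves, and in the mammary gland also epithelial ducts. Obesity is known for bringing macrophages into fat, and fat beside a growing tumor can take on inflammatory cells and lose lipid and adipocyte genes. Such changes appear in bulk RNA as shifts in marker genes, and in these samples fewer cells of a type and less RNA per cell cannot be told apart. Throughout, the HFD effect is the log2 difference of HFD peritumoral over HFD no-tumor fat, the Chow effect is that of Chow peritumoral over Chow no-tumor fat, and the interaction is the HFD effect minus the Chow effect. A positive interaction means that peritumoral fat moved further up, or less far down, on HFD than on Chow. Log2 values are given ± SE, levels are in CPM, the count of a gene set against its library's scaled total, and a gene was called at an adjusted p under 0.05 in edgeR's quasi-likelihood test with Benjamini-Hochberg adjustment over all genes tested.

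Libraries held 15.98 to 18.2 M counts in HFD peritumoral, 14.98 to 16.53 M in HFD no-tumor, and on Chow 9.13 to 14.46 M in peritumoral and 16.12 to 16.64 M in no-tumor fat. Mitochondrial ribosomal RNA took 24.38 to 27.6% of counts in HFD peritumoral, 20.54 to 22.01% in HFD no-tumor, and on Chow 23.58 to 35.8% in peritumoral and 29.65 to 34.77% in no-tumor libraries. The first principal component carried 44.5% of the variance and separated the HFD peritumoral libraries, at -94.14 to -35.9, from the other 12, of which the nearest, Chow peritumoral 4 and 3, lay at -7.78 and 7.15. Both of these also carried the higher cell cycle and chemokine levels of their group, so a list's count of called interactions is also given without them where their removal changed it by more than 1.5 times. The pair was chosen after these levels were seen, and leaving it out lowers the Chow peritumoral level of the same genes. A rise in the count of such a list without the pair is therefore partly built in and is no support for the interaction. The median SD within a group, over genes and on log2(CPM + 1), was 0.197 in HFD peritumoral, 0.119 in HFD no-tumor, and on Chow 0.194 in peritumoral and 0.146 in no-tumor fat. The 18 adipocyte markers were detected in every group, summing to 19200 to 36000 CPM in HFD peritumoral, 34500 to 38400 in HFD no-tumor, and on Chow 25700 to 31900 in peritumoral and 30400 to 37800 in no-tumor libraries.

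The peritumoral effect differed between diets for many genes, and in most of them it was seen on HFD. Of 16744 genes tested, 3456 (20.6%) had a called interaction, with 1632 higher (9.75% of all genes tested) and 1824 lower (10.9%); 491 of the higher and 937 of the lower differed by more than 2-fold. On its own, the HFD effect was called for 7145 genes (42.7%), 3464 higher (20.7%) and 3681 lower (22%). The Chow effect was called for 50 genes (0.299%), 20 higher (0.119%) and 30 lower (0.179%), although 3266 genes had an unadjusted p under 0.05. The median SE of a gene was 0.157 for the HFD effect and 0.159 for the Chow effect, while the SD of the effects over genes was 0.845 for HFD and 0.465 for Chow. Without Chow peritumoral 1 the interaction was called for 2258 genes, 1061 higher and 1197 lower; without Chow peritumoral 4, 2677 were higher, and without Chow no-tumor 1 or 4, 1210 or 1208 were lower. The Chow count moved by more than 1.5 times in each of the 16 fits without 1 library, from 1 without Chow peritumoral 3 to 410 without Chow peritumoral 2, and was 0 without Chow peritumoral 3 and 4 together, where 2042 genes had an unadjusted p under 0.05.

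Sorting the called interaction genes by their 2 effects gave mostly 1 pattern in each direction. Among the lower genes, 1570 (45.4% of all 3456) fell on HFD with no call on Chow, and among the higher genes 1457 (42.2%) rose on HFD with no call on Chow. A further 240 lower and 166 higher genes had neither effect called on its own. Another 9 were higher in the interaction with a called fall on Chow alone, 8 were lower with a called rise on Chow alone, and 6 fell on HFD and rose on Chow. None of the 3456 was called in the same direction on both diets by edgeR. Over all genes tested the HFD effect was called for 42.7% and the Chow effect for 0.299%. A missing Chow call is thus the usual state of any gene, and the HFD effect is itself a term of the interaction. The sorting therefore describes these calls and does not show that Chow had no effect. Across all genes tested the effects correlated at r = 0.467, a value over genes, which are not independent, of effects whose libraries are not shared.

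**Figure D1:**
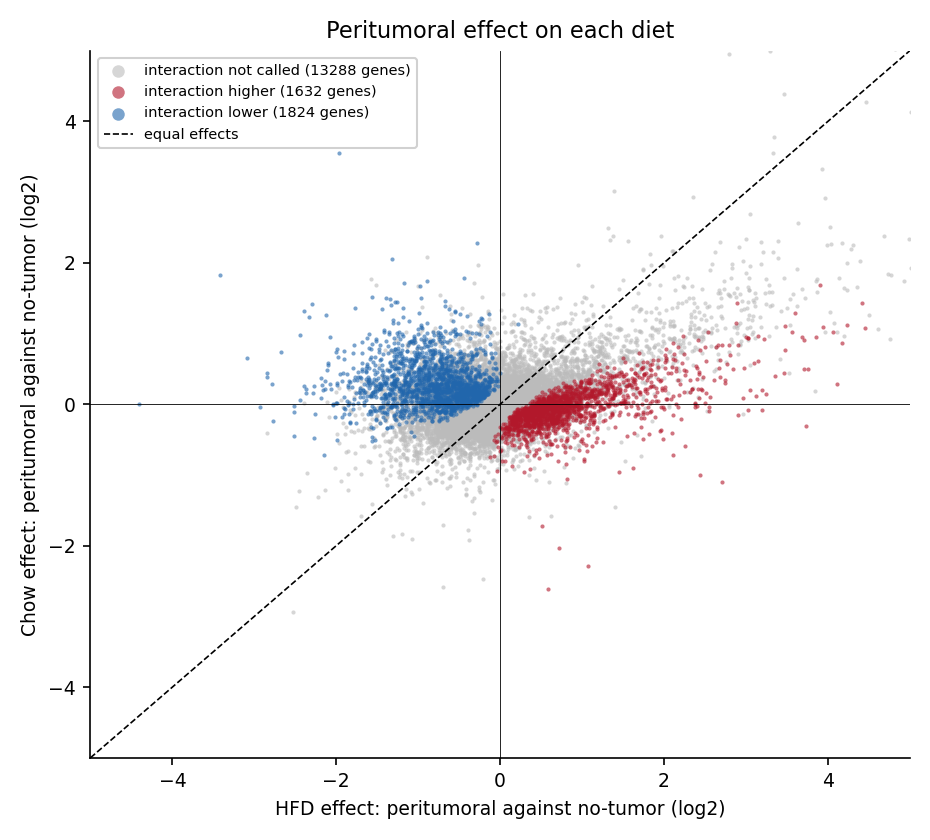
Each point is 1 of 16744 genes, with the HFD effect on the x axis and the Chow effect on the y axis (both log2, peritumoral over no-tumor); 54 genes lie outside the plotted limit of 5. The 1632 higher (red) and 1824 lower (blue) interaction genes spread along the HFD axis and little along the Chow axis, away from the dashed line of equal effects.

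The interaction did not always come from the HFD peritumoral libraries alone, as the levels in the 4 groups show. All 4 HFD peritumoral libraries lay above the other 12 for 649 of the 1632 higher genes (against 6.21% of all genes tested) and below them for 814 of the 1824 lower genes (7.33%). The HFD no-tumor libraries lay below the other 12 for 239 of the higher genes (2.25% of all genes tested) and above them for 254 of the lower (4.13%). Chow peritumoral libraries lay below the other 12 for 72 of the higher genes (1.48%) and above them for 147 of the lower (1.49%). Chow no-tumor libraries lay above the other 12 for 17 of the higher genes (0.794%) and below them for 16 of the lower (0.532%). The interaction was called on these same libraries, and each of these positions by itself moves it in the called direction. An excess over the share of all genes tested is therefore partly built in, and the counts only describe the levels.

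The 38 gene lists, which name cell types and pathways that mammary fat could hold, fell into groups with higher and with lower interactions. Interferon response, macrophage, complement, endoplasmic reticulum (ER) stress, DNA replication and red blood cell genes were called higher with no member lower. Endothelial, myelin, mammary epithelium and nuclear noncoding RNA genes were called lower with no member higher. Over all genes tested the median interaction was -0.02, the median HFD effect -0.06 and the median Chow effect 0.01. The shares of all genes called in the interaction, 9.75% higher and 10.9% lower, are to be set beside each list's count below. Counts on HFD alone are likewise to be set beside 20.7% higher and 22% lower, and counts on Chow alone beside 0.119% and 0.179%.

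**Figure D2:**
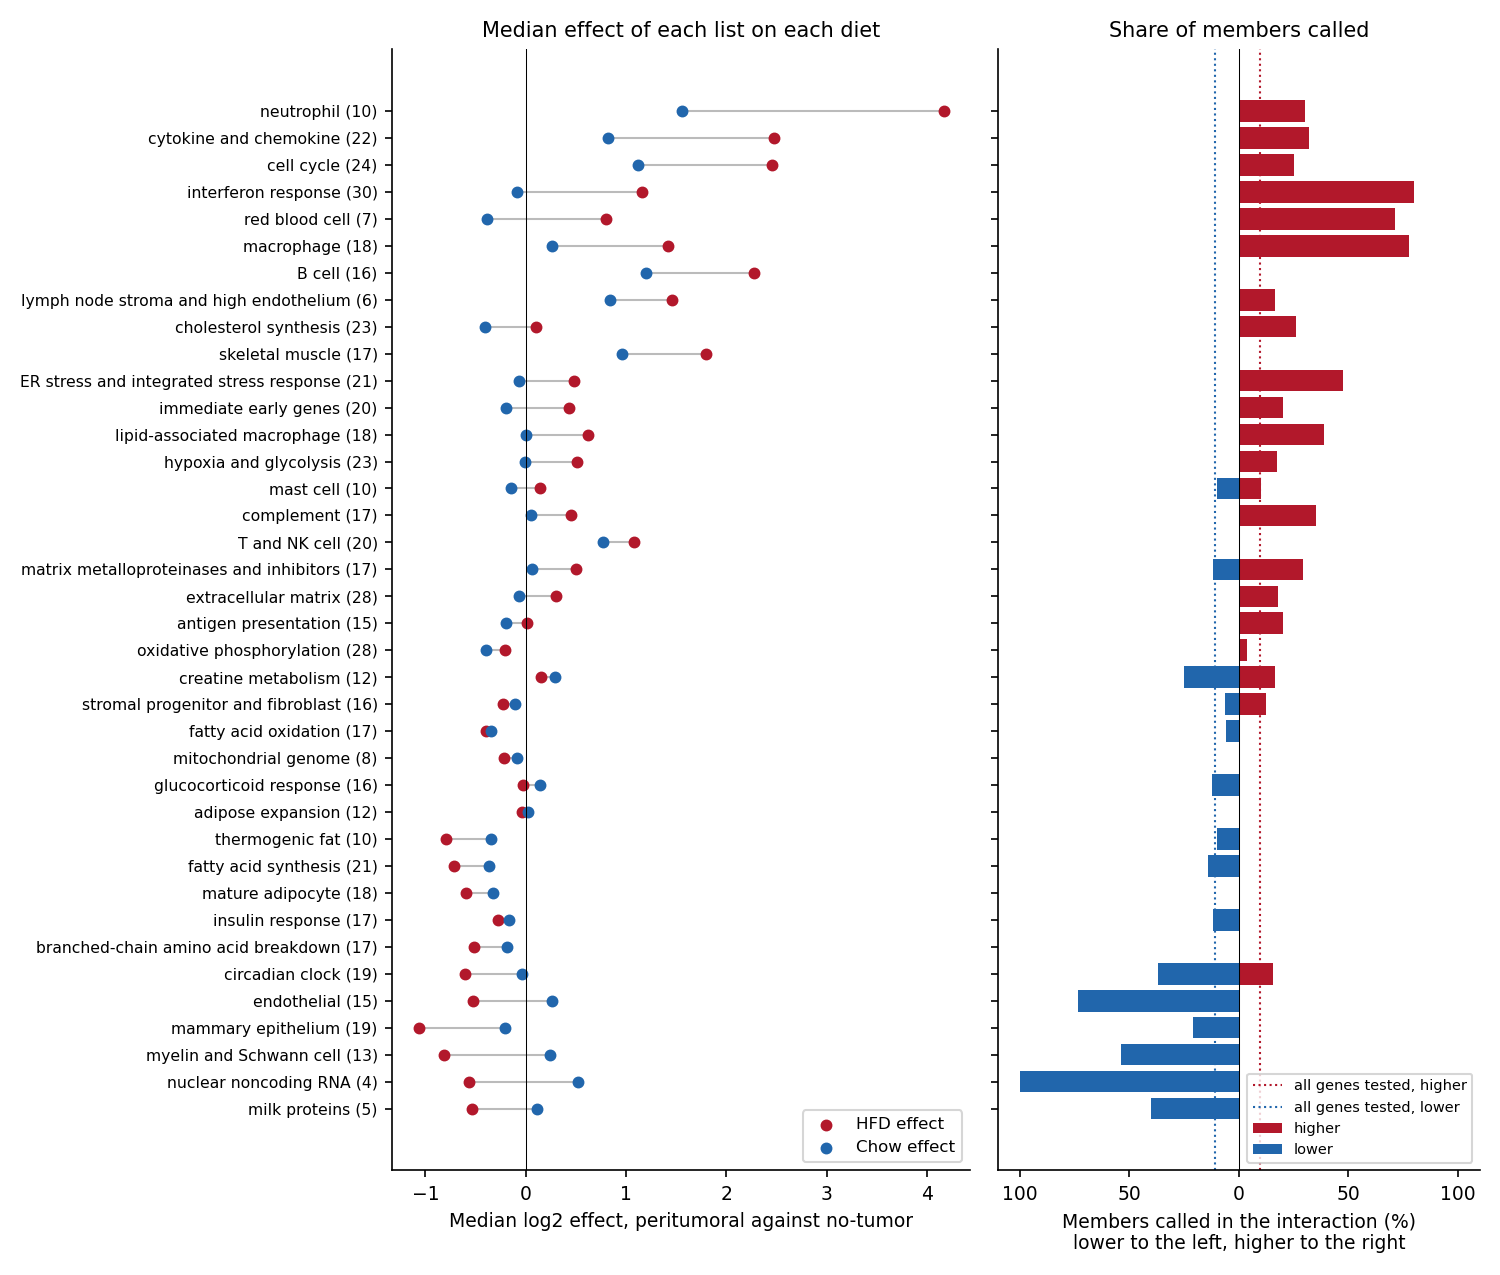
Left, the median HFD effect (red) and median Chow effect (blue) of each gene list on the log2 scale, with the number of members tested in parentheses; right, the share of members called higher (red) or lower (blue) in the interaction, with dotted lines at the shares of all genes tested (9.75% and 10.9%). The interferon response list stands out with 24 of 30 members higher and a median of 1.15 on HFD against -0.08 on Chow.

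Interferon-stimulated genes were the list with the most members called. Interferons bind surface receptors, and the transcription factors activated there bind the interferon-stimulated response element (ISRE) in front of antiviral genes. Of 31 list genes, 30 passed the filter, and 24 of them were higher in the interaction and none lower by edgeR, with a median interaction of 1.34, a median HFD effect of 1.15 and a median Chow effect of -0.08. On HFD alone 27 of the 30 rose, and on Chow alone none was called by edgeR, 4 had an unadjusted p under 0.05 and DESeq2 called none. The count of 24 stayed between 20 and 26 when any 1 library was left out and was 24 without Chow peritumoral 3 and 4. The members without a called interaction were Xaf1, Gbp2, Gbp3, Gbp7, Cxcl9 and Cxcl10. Some of these were among the 27 that rose on HFD. Which interferon acted was not tested.

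The sequences in front of 3 of these genes are shown because they carry the ISRE letters. The motif searched was GAAA, any 2 bases and GAAA again, or TTTC, any 2 bases and TTTC on the other strand, with overlapping matches allowed; capitals mark each match. The 250 bases before each start are from RefSeq on GRCm38.p6, the assembly that mm10 names, at chr4:156200819-156201068 on the minus strand for Isg15, chr19:34640639-34640888 on the plus strand for Ifit1 and chr5:120907526-120907775 on the minus strand for Oas1a.
Isg15: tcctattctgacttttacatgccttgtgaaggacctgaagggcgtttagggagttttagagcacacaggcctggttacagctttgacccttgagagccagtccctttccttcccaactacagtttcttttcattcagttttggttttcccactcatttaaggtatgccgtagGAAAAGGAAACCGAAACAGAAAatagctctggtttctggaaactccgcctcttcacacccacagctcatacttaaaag
Ifit1: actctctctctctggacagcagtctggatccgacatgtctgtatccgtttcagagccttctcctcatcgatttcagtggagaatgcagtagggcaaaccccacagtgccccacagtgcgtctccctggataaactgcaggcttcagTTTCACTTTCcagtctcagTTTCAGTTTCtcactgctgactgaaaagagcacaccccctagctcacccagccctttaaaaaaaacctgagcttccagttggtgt
Oas1a: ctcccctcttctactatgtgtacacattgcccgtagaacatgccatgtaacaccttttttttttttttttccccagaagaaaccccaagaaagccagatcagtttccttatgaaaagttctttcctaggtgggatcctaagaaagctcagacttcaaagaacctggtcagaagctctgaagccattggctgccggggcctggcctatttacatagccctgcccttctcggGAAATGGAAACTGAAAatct
In the whole table's windows of 300 bases, which add 50 bases after the start, the motif was in 3.44% of 32851 promoters. Of the 30 interferon genes tested, 23 were matched to that table, too few for a share of the list to be read, and 15 of them held the motif. A match is a description of letters and not a binding site, and windows without one, such as that of Oasl1, say nothing about the factor.

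Isg15, a ubiquitin-like protein that is joined to other proteins during antiviral defence (chr4:156199424-156200818 on mm10), showed how the groups were ordered. It had 6.36, 13.9, 9.22 and 10.4 CPM in HFD peritumoral fat, against 2.01, 1.61, 1.48 and 2.2 CPM in HFD no-tumor fat. On Chow, Isg15 had 3.34, 5.27, 5.47 and 3.7 CPM in peritumoral fat, against 11.6, 2.49, 10.7 and 11.1 CPM in no-tumor fat. HFD peritumoral libraries lay above all HFD no-tumor libraries, whereas the Chow groups overlapped through Chow no-tumor 2 alone, at 2.49 CPM, with the other 3 Chow no-tumor libraries above all Chow peritumoral libraries. The interaction was 3.45 ± 0.53 (adjusted p = 0.00158), from an HFD effect of 2.44 ± 0.39 and a Chow effect of -1.003 ± 0.36 (adjusted p = 0.152). Oas1a makes the 2-5A signal that activates RNase L, and its counts may be shared with near-identical Oas1 copies. Its levels were 15.1, 23.1, 17.4 and 21.3 CPM in HFD peritumoral fat, against 5.08, 2.89, 4.63 and 3.93 CPM in HFD no-tumor fat. On Chow, Oas1a had 7.3, 9.34, 13.1 and 10.6 CPM in peritumoral fat, against 14.4, 5.4, 12.4 and 14.5 CPM in no-tumor fat. The HFD no-tumor libraries were again the lowest 4 of the 16, and the interaction was 2.43 ± 0.38. Rtp4, a negative regulator of the interferon response, repeated the order, with 43.3, 51.7, 45.8 and 49.7 CPM in HFD peritumoral fat, against 18.6, 16.8, 19 and 12.6 CPM in HFD no-tumor fat. On Chow, Rtp4 had 31.4, 36.5, 39 and 34.6 CPM in peritumoral fat, against 36.1, 22.4, 39.1 and 42.3 CPM in no-tumor fat. All 4 HFD peritumoral values lay above the other 12 and all 4 HFD no-tumor values below them. Oasl1 and Dhx58 (LGP2, a helicase that tunes RNA sensing) had interactions of 3.11 ± 0.50 and 1.74 ± 0.28, and both were also lowest in the 4 HFD no-tumor libraries. Trim30c, a tripartite motif gene, had an interaction of 2.04 ± 0.34. In sum of CPM the list ran from 1280 to 1860 in HFD peritumoral, 713 to 937 in HFD no-tumor, and on Chow 1090 to 1370 in peritumoral and 857 to 1500 in no-tumor fat. Macrophage markers, described next, moved in the same direction, and their part in these differences was not tested.

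Macrophage markers were higher in HFD peritumoral fat, and this rise was larger than the difference on Chow. Of 18 markers, all of which passed the filter, 14 were higher in the interaction and none lower by edgeR, with a median interaction of 1.28; 17 rose on HFD (median effect 1.42), and on Chow none was called by edgeR or DESeq2 and 2 had an unadjusted p under 0.05 (median 0.26). Their summed level ran from 3310 to 4680 CPM in HFD peritumoral, 1360 to 1700 in HFD no-tumor, and on Chow 1640 to 2850 in peritumoral and 1320 to 2290 in no-tumor libraries. Cd68, a lysosomal membrane glycoprotein of macrophages, had 132, 165, 188 and 188 CPM in HFD peritumoral fat, against 47.3, 45.4, 45.6 and 45.8 CPM in HFD no-tumor fat. On Chow, Cd68 had 34.7, 47.9, 74.7 and 67.8 CPM in peritumoral fat, against 58.9, 28.9, 48.3 and 51.1 CPM in no-tumor fat. HFD peritumoral libraries lay above the other 12, and Chow peritumoral libraries overlapped Chow no-tumor fat; the interaction was 1.61 ± 0.31 (adjusted p = 0.00396). Fcgr1, the high-affinity receptor for IgG, had 31.1, 51.2, 35.8 and 49.1 CPM in HFD peritumoral fat, against 4.85, 3.02, 3.03 and 5.42 CPM in HFD no-tumor fat. On Chow, Fcgr1 had 8.28, 13.4, 23.3 and 25 CPM in peritumoral fat, against 18.3, 5.19, 13.5 and 15.2 CPM in no-tumor fat. The interaction of 2.95 ± 0.54 rested on an HFD effect of 3.35 ± 0.40 (adjusted p = 8.06e-05), while the Chow effect was 0.40 ± 0.37 (adjusted p = 0.574). Itgax, Cd14 and Cd163 were among the markers without a called interaction.

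Of the 17 complement genes, 6 were higher and none lower in the interaction by edgeR, namely the 3 chains of C1q, properdin (Cfp) and the receptors C5ar1 and C3ar1. The 3 C1q chains are also counted among the macrophage markers above, so the complement and macrophage lists are not independent. C1qb, a chain of the recognition molecule of the classical pathway that macrophages make in most tissues, had 277, 259, 375 and 334 CPM in HFD peritumoral fat, against 116, 91.2, 99.2 and 115 CPM in HFD no-tumor fat. On Chow, C1qb had 125, 171, 229 and 157 CPM in peritumoral fat, against 210.4, 92.2, 179.7 and 189 CPM in no-tumor fat. HFD peritumoral libraries exceeded the other 12, and the interaction was 1.54 ± 0.31. Its partners C1qa and C1qc had interactions of 1.45 ± 0.30 and 1.48 ± 0.32, and Cfp one of 1.21 ± 0.28. C3, C1s1, C1ra, Cfb and Serping1, complement genes made by stromal cells and adipocytes as well, had no called interaction.

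Lipid-associated macrophage genes were called in part. Of 18 members 7 were higher and none lower by edgeR, and this count fell to 4 without HFD no-tumor 1 and to 3 without Chow peritumoral 1. Plin2, which coats lipid droplets, had 278, 303, 296 and 369 CPM in HFD peritumoral fat, against 181, 188, 176 and 201 CPM in HFD no-tumor fat. On Chow, Plin2 had 146, 128, 162 and 149.5 CPM in peritumoral fat, against 157, 159, 131 and 149.8 CPM in no-tumor fat. Values were separate on HFD and overlapping on Chow, with an interaction of 0.77 ± 0.14. Galectin-3 (Lgals3) and cathepsin B (Ctsb) had interactions of 0.98 ± 0.21 and 0.71 ± 0.15. Trem2, the lipid receptor that the list is known for, rose on HFD, but its interaction was not called; Lpl and Cd36, which adipocytes also express, fell on HFD.

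Of 22 cytokine and chemokine genes 7 were higher and none lower in the interaction, and 13 were higher without Chow peritumoral 3 and 4. Il1b, the inflammasome-processed cytokine, had 11.4, 37.2, 27.9 and 21.4 CPM in HFD peritumoral fat, against 0.296, 0.771, 0.432 and 0.417 CPM in HFD no-tumor fat. On Chow, Il1b had 0.696, 1.21, 4.11 and 4.3 CPM in peritumoral fat, against 0.565, 0.995, 0.33 and 0.716 CPM in no-tumor fat. The HFD groups were far apart, and the Chow groups overlapped; the interaction was 3.73 ± 0.88 (adjusted p = 0.0101), beside an HFD effect of 5.66 ± 0.56. Ccl8, a chemokine for monocytes and T cells, had 70.4, 103, 134 and 136 CPM in HFD peritumoral fat, against 6.68, 5.08, 5.07 and 6.72 CPM in HFD no-tumor fat. On Chow, Ccl8 had 16.1, 32.1, 87.3 and 80.03 CPM in peritumoral fat, against 27, 11.2, 34.5 and 26.1 CPM in no-tumor fat. Chow peritumoral 3 and 4 lay within the range of HFD peritumoral fat while Chow peritumoral 1 and 2 lay far below it, and the interaction was 3.11 ± 0.67. Csf1, the macrophage growth factor, and Tgfb1 had interactions of 1.14 ± 0.23 and 0.98 ± 0.23. Among 10 neutrophil genes tested of 13, 3 were higher in the interaction, 9 rose on HFD, and 5 and 7 were higher in the interaction without Chow peritumoral 4 and without 3 and 4 together. The 3 were Csf3r, Mmp9 and Il1b. Il1b is also counted with the cytokine genes above, so these lists are not independent. Csf3r, the receptor that drives neutrophil production, had 13.9, 24.2, 24.7 and 24.8 CPM in HFD peritumoral fat, against 2.01, 2.63, 3.15 and 3.15 CPM in HFD no-tumor fat. On Chow, Csf3r had 4.31, 5.49, 13.1 and 9.32 CPM in peritumoral fat, against 4.96, 3.34, 4.89 and 3.39 CPM in no-tumor fat. Its interaction of 2.04 ± 0.43 separated HFD peritumoral libraries from the other 12. Mmp9, a gelatinase of neutrophils and macrophages, was ordered otherwise, with 12.9, 12.6, 13.3 and 12.2 CPM in HFD peritumoral fat, against 7.03, 6.81, 7.17 and 6.01 CPM in HFD no-tumor fat. On Chow, Mmp9 had 16.3, 25.4, 27.3 and 15.5 CPM in peritumoral fat, against 28.8, 23.9, 27.9 and 31.9 CPM in no-tumor fat. The Chow libraries exceeded all HFD libraries here, and the interaction of 1.32 ± 0.22 came with an HFD effect of 0.92 ± 0.16 and a Chow effect of -0.40 ± 0.15. T and NK cell genes (20 tested) and B cell genes (16 tested of 17) had no called interaction by edgeR; none and 1 had an unadjusted p under 0.05, DESeq2 called none and 1, and edgeR called 1 B cell gene without Chow peritumoral 1 or 4.

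DNA replication and mitosis genes rose on HFD throughout, but edgeR called the difference from Chow for few of them. All 24 cell cycle genes were higher in HFD peritumoral fat (median effect 2.46), none was called on Chow by edgeR although 13 had an unadjusted p under 0.05 and DESeq2 called 5 (median 1.12), and 6 were higher in the interaction. In the interaction DESeq2 called 11 of the 24 genes and limma voom 18, and edgeR called 10 with all 24 libraries. The edgeR count of 6 rose to 11 without HFD peritumoral 1, to 19 without Chow peritumoral 4 and to 24 without Chow peritumoral 3 and 4, whose libraries held most of the group's cell cycle RNA. Summed levels ran from 368 to 1190 CPM in HFD peritumoral, 126 to 182 in HFD no-tumor, and on Chow 107 to 432 in peritumoral and 99.5 to 141 in no-tumor fat. The called members were 3 subunits of the MCM helicase that opens DNA for replication, the polymerase clamp Pcna, thymidylate synthase (Tyms) and the mitotic kinase Aurkb. Mcm5 had 17.4, 45.9, 24.6 and 31.3 CPM in HFD peritumoral fat, against 4.79, 4.5, 6.12 and 6.13 CPM in HFD no-tumor fat. On Chow, Mcm5 had 5.08, 4.77, 8.15 and 11.6 CPM in peritumoral fat, against 8.79, 3.69, 6.47 and 6.19 CPM in no-tumor fat. HFD peritumoral values were the 4 highest, and the Chow groups overlapped; the interaction was 2.27 ± 0.46 (adjusted p = 0.00487). Mcm2, Mcm3 and Pcna followed with interactions of 2.05 ± 0.38, 1.74 ± 0.36 and 0.90 ± 0.17. Mki67, the usual proliferation marker, had an HFD effect of 1.70 and a Chow effect of 1.04, with no call by edgeR on Chow or in the interaction in the fit of all 16 libraries.

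Genes of the ER stress and integrated stress responses, which include the chaperones that fold secreted proteins, were higher in the interaction in part. Of 21 genes 10 were higher and none lower by edgeR (median interaction 0.54, median HFD effect 0.48, median Chow effect -0.07), and 8 to 12 were called when any 1 library was left out. The 10 were Hspa5, Hsp90b1, Pdia4, Pdia6, Calr, Sdf2l1, Manf, Xbp1, Atf4 and Shmt2; Dnajb9, Ddit3, Atf5, Trib3, Asns, Chac1, Sesn2, Herpud1, Creld2, Phgdh and Psat1 were not called. Pdia6, a disulfide isomerase, had 133, 177, 149 and 146 CPM in HFD peritumoral fat, against 87.3, 86.8, 82.4 and 81.5 CPM in HFD no-tumor fat. On Chow, Pdia6 had 93.5, 98.6, 104 and 102 CPM in peritumoral fat, against 117, 87.9, 105 and 122 CPM in no-tumor fat. All HFD peritumoral libraries lay above the other 12, and the Chow groups overlapped; the interaction was 0.96 ± 0.14 (adjusted p = 0.00124). The calcium-binding chaperone Calr had 554, 567, 556 and 545 CPM in HFD peritumoral fat, against 383, 354, 348 and 329 CPM in HFD no-tumor fat. On Chow, Calr had 374, 388, 396 and 434 CPM in peritumoral fat, against 511, 377, 432 and 517 CPM in no-tumor fat. The order was the same, with an interaction of 0.86 ± 0.14. Manf and Pdia4 had interactions of 0.93 ± 0.15 and 0.91 ± 0.15.

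The promoters of Pdia6 and Calr are shown because the ER stress response element, the site through which ATF6 is known to raise such chaperones, was among the letters found. The motif searched was CCAAT, any 9 bases and CCACG, or CGTGG, any 9 bases and ATTGG on the other strand, marked in capitals, in the 250 bases before the start at chr12:17266339-17266588 on the plus strand for Pdia6 and chr8:84846932-84847181 on the minus strand for Calr (GRCm38.p6, from RefSeq).
Pdia6: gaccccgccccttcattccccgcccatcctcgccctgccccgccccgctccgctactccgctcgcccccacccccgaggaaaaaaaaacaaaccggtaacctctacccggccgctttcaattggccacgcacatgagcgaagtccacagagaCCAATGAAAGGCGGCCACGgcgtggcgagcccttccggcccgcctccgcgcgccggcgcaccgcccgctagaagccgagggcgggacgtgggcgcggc
Calr: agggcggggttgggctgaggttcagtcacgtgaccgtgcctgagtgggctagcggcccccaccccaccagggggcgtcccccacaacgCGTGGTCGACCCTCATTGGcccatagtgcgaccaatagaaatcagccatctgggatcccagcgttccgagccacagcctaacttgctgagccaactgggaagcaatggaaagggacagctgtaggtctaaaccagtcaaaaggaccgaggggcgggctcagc
It was in the windows of 5 of the 20 list genes with a promoter (Hspa5, Hsp90b1, Pdia6, Calr and Creld2), too few for a share of the list to be read. Of these 5 genes, Creld2 had no called interaction. Such chaperones are known for this element, so finding it in their list says nothing about these data. It was in 39 of all 32851 windows (0.119%), 5 of the 1450 windows of higher interaction genes (0.345%) and 1 of the 1550 windows of lower ones (0.0645%). Windows of Hspa5, Hsp90b1, Pdia6 and Calr are among those 5, so these shares largely repeat the list and are no separate support.

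The other higher genes with the lowest adjusted p included several that no list held. By the rule for named genes, 384 genes were at least 2-fold higher in the interaction and reached 5 CPM in a group, and the 14 with the lowest adjusted p were taken. Hdc, which makes histamine from histidine and is made by mast cells and other myeloid cells, headed them with 13.1, 17.5, 20.7 and 13.7 CPM in HFD peritumoral fat, against 2.48, 2.7, 3.34 and 2.5 CPM in HFD no-tumor fat. On Chow, Hdc had 14, 14.1, 12.9 and 10.5 CPM in peritumoral fat, against 9.86, 7.39, 12.3 and 18.6 CPM in no-tumor fat. The 4 HFD no-tumor libraries lay below the other 12, and HFD peritumoral libraries overlapped both Chow groups. The interaction of Hdc was 2.46 ± 0.33 (adjusted p = 0.000898). Hdc belongs to the mast cell list, which did not move as a whole. Of its 10 genes 1, Hdc, was higher and 1 lower in the interaction, and 3 rose and 2 fell on HFD, near the shares of all genes tested. The list summed to 137 to 227 CPM in HFD peritumoral and 165 to 210 CPM in HFD no-tumor libraries. The tubulin Tubb5 had 305, 504, 354 and 359.9 CPM in HFD peritumoral fat, against 192, 185, 196 and 200.5 CPM in HFD no-tumor fat. On Chow, Tubb5 had 179, 196, 214 and 212 CPM in peritumoral fat, against 264, 217, 247 and 227 CPM in no-tumor fat. Here HFD peritumoral libraries stood above the other 12 and Chow peritumoral below Chow no-tumor libraries, with an interaction of 1.23 ± 0.17, although the Chow effect itself was not called (adjusted p = 0.261). Lgals3bp, a secreted glycoprotein that binds galectin-3, had 419, 406, 431 and 485 CPM in HFD peritumoral fat, against 233, 242, 266 and 235 CPM in HFD no-tumor fat. On Chow, Lgals3bp had 207, 251, 274 and 217 CPM in peritumoral fat, against 291, 229, 284 and 261 CPM in no-tumor fat. HFD peritumoral fat was again the one group apart, and the interaction was 1.002 ± 0.14. Ostc, a subunit of the enzyme that adds N-glycans in the ER, the clathrin adaptor subunit Ap2s1 and the kinase Pim1 had interactions of 1.05 ± 0.15, 1.08 ± 0.17 and 1.25 ± 0.21, each with all HFD peritumoral libraries above the other 12. Heparanase (Hpse), which cuts heparan sulfate in the matrix, had an interaction of 1.77 ± 0.28, with HFD no-tumor libraries, at 7.26 to 9.04 CPM, below the other 12.

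Genes of the sterol list were higher in the interaction in part. Of 23 genes 6 were higher in the interaction and none lower by edgeR, with a median HFD effect of 0.10 and a median Chow effect of -0.41; the count fell to 3 without HFD no-tumor 3 or without Chow peritumoral 1. Srebf2, the transcription factor that induces sterol synthesis, had 42.5, 82.3, 46.6 and 45.9 CPM in HFD peritumoral fat, against 35.9, 31.4, 37.3 and 34.1 CPM in HFD no-tumor fat. On Chow, Srebf2 had 49.7, 45.8, 52.5 and 38.2 CPM in peritumoral fat, against 66.5, 51.3, 55.9 and 56.3 CPM in no-tumor fat. HFD peritumoral exceeded HFD no-tumor libraries, with HFD peritumoral 2 the highest of the 16, and the Chow groups overlapped; the interaction was 0.95 ± 0.24 (adjusted p = 0.0133). The synthetic enzyme Msmo1, also highest in HFD peritumoral 2, had an interaction of 0.86 ± 0.24. Against 9.75% of all genes tested, hypoxia and glycolysis genes had 4 of 23 higher and immediate early genes 4 of 20. Neither list had a member called lower by edgeR. These small counts moved by more than 1.5 times in 11 and 9 of the 16 fits without 1 library, from 0 to 9 and from 1 to 7, and the hypoxia and glycolysis count was 7 without Chow peritumoral 3 and 4 together. Fosl2, a subunit of the transcription factor AP-1, kept its call in all of them and had an interaction of 0.78 ± 0.19.

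Hemoglobin genes, which mark red blood cells, rose on HFD, with 5 of 7 red blood cell genes higher in the interaction and none lower by edgeR. The near-identical copies of each globin make their separate counts uncertain. Hbb-bs had 251, 232, 368 and 246 CPM in HFD peritumoral fat, against 122, 128, 156 and 223 CPM in HFD no-tumor fat. On Chow, Hbb-bs had 87.8, 115, 88.9 and 61 CPM in peritumoral fat, against 124, 143, 135 and 103 CPM in no-tumor fat. HFD peritumoral libraries exceeded HFD no-tumor libraries by a small margin, the Chow groups overlapped, and the interaction was 1.32 ± 0.30; Hbb-bt and Hba-a2 had 1.56 ± 0.36 and 1.04 ± 0.28. The summed level ran from 403 to 671 CPM in HFD peritumoral, 214 to 404 in HFD no-tumor, and on Chow 135 to 201 in peritumoral and 179 to 246 in no-tumor fat. The part of blood left in the tissue in other results was not tested.

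Matrix-cutting enzymes and their inhibitors were called in both directions. Of 17 genes 5 were higher and 2 lower in the interaction. Adamts4, which cuts aggrecan and versican, had 5.92, 15.8, 9.76 and 12.5 CPM in HFD peritumoral fat, against 2.66, 2.19, 1.24 and 2.68 CPM in HFD no-tumor fat. On Chow, Adamts4 had 5.29, 4.28, 8.09 and 8.12 CPM in peritumoral fat, against 5.78, 3.41, 7.13 and 6.32 CPM in no-tumor fat. HFD peritumoral libraries exceeded HFD no-tumor libraries, with an interaction of 2.14 ± 0.45, and the membrane-bound protease Mmp14 had one of 0.71 ± 0.14. Timp3, a matrix-bound inhibitor of such enzymes, had 297, 166, 257 and 202 CPM in HFD peritumoral fat, against 476, 401, 426 and 441 CPM in HFD no-tumor fat. On Chow, Timp3 had 341, 270.5, 263 and 269.9 CPM in peritumoral fat, against 249, 246, 288 and 318 CPM in no-tumor fat. It fell on HFD with no overlap and its interaction was -0.98 ± 0.21 (adjusted p = 0.00539). Of 28 extracellular matrix genes 5 were higher, against 9.75% of all genes tested, and none lower by edgeR. That count went to 3 without HFD peritumoral 3, 1 without HFD no-tumor 2, 2 without HFD no-tumor 3 and 1 without Chow peritumoral 1. It was 9 without Chow no-tumor 2 and 9 without Chow peritumoral 3 and 4 together. The fibrillin Fbn1 was a member called throughout, at 0.71 ± 0.20. Of 16 stromal progenitor and fibroblast genes tested, 2 were higher, Ly6a at 0.97 ± 0.20 and Thy1 at 0.86 ± 0.19, and 1 was lower. For so small a list these counts are near the shares of all genes tested (9.75% higher and 10.9% lower).

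Blood vessel genes were lower in the interaction in most of their list. Of 15 endothelial genes, all tested, 11 were lower and none higher by edgeR, with a median interaction of -0.81, a median HFD effect of -0.53 and a median Chow effect of 0.26; on Chow none was called by edgeR, 6 had an unadjusted p under 0.05 and DESeq2 called 2. The count stayed between 9 and 12 when any 1 library was left out. Summed levels ran from 766 to 1120 CPM in HFD peritumoral, 1360 to 1420 in HFD no-tumor, and on Chow 894 to 1170 in peritumoral and 853 to 901 in no-tumor fat, so HFD no-tumor fat stood above the other groups. Cdh5, the cadherin of endothelial junctions, had 172, 115, 178 and 190.5 CPM in HFD peritumoral fat, against 243, 244, 252 and 247 CPM in HFD no-tumor fat. On Chow, Cdh5 had 148, 119, 154 and 132 CPM in peritumoral fat, against 118, 125, 110.4 and 108 CPM in no-tumor fat. The 4 HFD no-tumor libraries were the highest of the 16, and the interaction was -0.85 ± 0.17 (adjusted p = 0.00437). Kdr, the main receptor for VEGF, had 87.5, 54.2, 76.4 and 76.1 CPM in HFD peritumoral fat, against 128, 124, 118 and 115 CPM in HFD no-tumor fat. On Chow, Kdr had 133, 113, 119 and 89.9 CPM in peritumoral fat, against 77.5, 112, 84.3 and 98.9 CPM in no-tumor fat. HFD peritumoral libraries lay below HFD no-tumor libraries and the Chow groups overlapped, for an interaction of -1.01 ± 0.20. The receptor kinase Tie1 and the guidance receptor Robo4 had interactions of -0.88 ± 0.16 and -1.10 ± 0.23. Rgs5, a regulator of G-protein signalling that marks pericytes, was first among the lower genes with 209, 158, 185 and 179.9 CPM in HFD peritumoral fat, against 352, 382, 339.8 and 366 CPM in HFD no-tumor fat. On Chow, Rgs5 had 220.4, 175, 209 and 212 CPM in peritumoral fat, against 166, 198, 151 and 154 CPM in no-tumor fat. HFD no-tumor libraries again stood above the other 12, with an interaction of -1.26 ± 0.15 (adjusted p = 0.000846). Ccm2l, an endothelial gene of the cerebral cavernous malformation family, and the transcription factor Dach1 had interactions of -1.58 ± 0.22 and -1.61 ± 0.21 with the same group highest. Plvap, Eng, Tek and Rgcc were the endothelial genes without a called interaction.

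Myelin genes were lower in the interaction. Of 13 genes tested of 14, 7 were lower and none higher by edgeR (median -0.88), and on HFD 8 fell and 1, Ncam1, rose, while on Chow 1, Cldn19, rose. Periaxin (Prx), a membrane-associated protein of myelinating Schwann cells, had 3.29, 3.85, 4.49 and 3.07 CPM in HFD peritumoral fat, against 7.33, 5.78, 7.17 and 5.65 CPM in HFD no-tumor fat. On Chow, Prx had 11.5, 13, 9.76 and 6.09 CPM in peritumoral fat, against 6.53, 3.77, 4.16 and 5.6 CPM in no-tumor fat. HFD peritumoral libraries lay below HFD no-tumor libraries, and 3 of 4 Chow peritumoral libraries exceeded all Chow no-tumor libraries, Chow peritumoral 4 being the exception. The interaction was -1.84 ± 0.31 (adjusted p = 0.00185), with a Chow effect of 1.02 ± 0.22 that was not called (adjusted p = 0.054). Mal, another membrane protein of these cells, had an interaction of -1.98 ± 0.40. The summed level of the list ran from 172 to 240 CPM in HFD peritumoral, 216 to 250 in HFD no-tumor, and on Chow 238 to 312 in peritumoral and 230 to 258 in no-tumor fat, so the groups overlapped in the sum. How much nerve each piece of tissue held was not tested.

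Epithelial genes of the mammary ducts fell on HFD, and the difference from Chow was called for some. Of 19 genes 15 fell on HFD (median effect -1.07), none was called on Chow by edgeR, where 2 had an unadjusted p under 0.05 and DESeq2 called 1 (median -0.20), and 4 were lower in the interaction with none higher; without HFD peritumoral 1 the interaction count was 11. DESeq2 called 8 of these genes in the interaction and limma voom 10. The summed level ran from 407 to 1050 CPM in HFD peritumoral, 1360 to 1550 in HFD no-tumor, and on Chow 1830 to 2060 in peritumoral and 1900 to 2820 in no-tumor fat. Elf5, a transcription factor of luminal progenitor cells, had 8.61, 5.35, 6.47 and 3.61 CPM in HFD peritumoral fat, against 17.1, 12.8, 15.2 and 10.1 CPM in HFD no-tumor fat. On Chow, Elf5 had 36.2, 15.9, 19.2 and 20.7 CPM in peritumoral fat, against 12.5, 13.6, 15.8 and 15.3 CPM in no-tumor fat. HFD peritumoral lay below HFD no-tumor libraries and Chow peritumoral above Chow no-tumor libraries, with an interaction of -1.88 ± 0.37 (adjusted p = 0.00396). The prolactin receptor Prlr had 222, 80.5, 197 and 87.4 CPM in HFD peritumoral fat, against 364, 511, 452 and 466 CPM in HFD no-tumor fat. On Chow, Prlr had 691, 671, 585 and 686 CPM in peritumoral fat, against 812, 794, 624 and 674 CPM in no-tumor fat. It fell on HFD without overlap, Chow groups overlapped, and the interaction was -1.47 ± 0.36. The basal keratin Krt5 and the transcription factor Trps1 had interactions of -1.55 ± 0.40 and -0.61 ± 0.16. Krt8, Krt18 and Epcam, general epithelial markers, fell on HFD without a called interaction. How much duct each piece held was not tested.

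Long nuclear RNAs were lower in the interaction in every member tested. The list had 4 genes in the deposited table, all tested, and each was lower by edgeR, in the full fit and without any 1 library. Malat1, the abundant RNA of nuclear speckles, had 4703, 4398, 5179 and 5147 CPM in HFD peritumoral fat, against 7256, 7416, 6901 and 6259 CPM in HFD no-tumor fat. On Chow, Malat1 had 11840, 10190, 10670 and 11420 CPM in peritumoral fat, against 7819, 8819, 8742 and 8724 CPM in no-tumor fat. The 4 groups did not overlap, with Chow peritumoral highest, then Chow no-tumor, then HFD no-tumor and then HFD peritumoral fat. Its interaction was -0.89 ± 0.14 (adjusted p = 0.00162), from an HFD effect of -0.52 ± 0.10 and an uncalled Chow effect of 0.37 ± 0.10. Neat1, the scaffold of paraspeckles (chr19:5824708-5845478 on mm10), had 310.3, 320.3, 415 and 369 CPM in HFD peritumoral fat, against 593, 532, 549.8 and 487 CPM in HFD no-tumor fat. On Chow, Neat1 had 1013, 585, 824 and 691 CPM in peritumoral fat, against 456, 417, 418 and 374 CPM in no-tumor fat. It fell on HFD and rose on Chow, both called, with an interaction of -1.51 ± 0.20 (adjusted p = 0.000846); the Chow call was lost without Chow peritumoral 3, Chow no-tumor 1, 3 or 4, and without Chow peritumoral 3 and 4 together. Snhg11 and Meg3, an imprinted RNA, had interactions of -1.25 ± 0.24 and -0.76 ± 0.16. The sum of the list was 4750 to 5640 CPM in HFD peritumoral, 6820 to 8020 in HFD no-tumor, and on Chow 10900 to 13000 in peritumoral and 8360 to 9330 in no-tumor libraries.

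Higher and lower interaction genes also differed in gene structure and in level. The 1824 lower genes had a median of 4632 exon bases and a median span of 32.9 kb, and 16.2% of those with a gene type were noncoding; the 1632 higher genes had 2704 bases, 13.5 kb and 0.678%. Over all genes tested the values were 3340 bases, 19.2 kb and 7.14%. The median level of a gene, as its mean over the 4 groups, was 24.3 CPM for the higher and 9.82 CPM for the lower genes. It was 12.6 CPM over all genes tested, and the part of level in the differences of structure was not tested. Mitochondrial ribosomal RNA averaged 25.99% of counts in HFD peritumoral against 21.61% in HFD no-tumor libraries. On Chow it averaged 29.45% in peritumoral against 32.42% in no-tumor libraries, with overlapping ranges. Total RNA depleted of ribosomal RNA holds unspliced and nuclear RNA, and the part of RNA quality or of nuclear share in these differences was not tested.

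**Figure D3:**
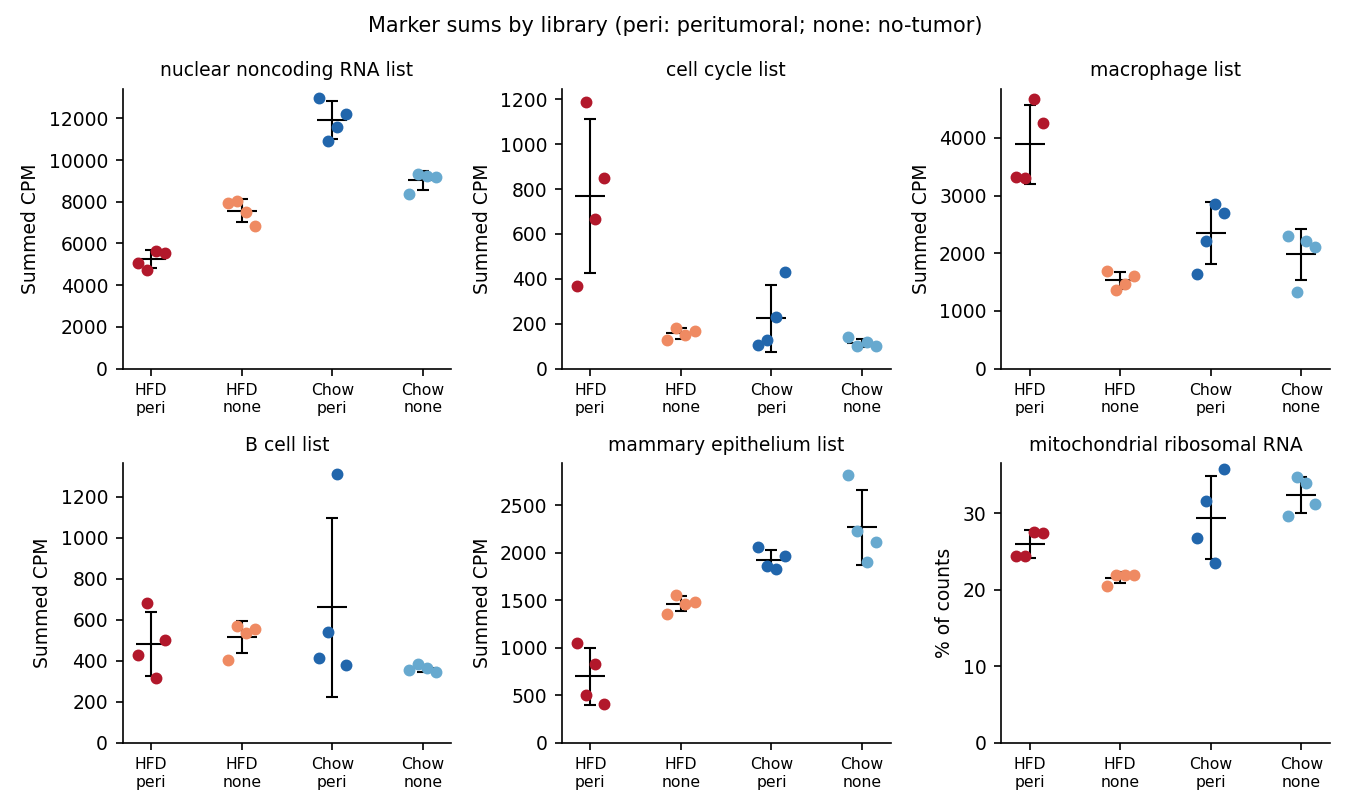
Summed CPM of 5 gene lists and the share of counts from mitochondrial ribosomal RNA, 1 point per library, with the mean and SD of each group of 4 in black. Nuclear noncoding RNA separates all 4 groups (4750 to 5640 CPM in HFD peritumoral and 10900 to 13000 CPM in Chow peritumoral libraries), while cell cycle sums overlap between HFD peritumoral and Chow peritumoral libraries.

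Genes that moved in opposite directions on the diets, with both effects called, numbered 6. They were Cldn19, Kcna1, Rapgef5, Slc4a8, Rbm4 and Neat1, each lower in HFD peritumoral and higher in Chow peritumoral fat than in the no-tumor fat of the same diet; Slc4a8 falls outside the rule for named genes and was chosen after its values were seen. Kcna1, a potassium channel of nerve fibres (chr6:126636463-126645801 on mm10), had 4.33, 2.13, 3.83 and 1.93 CPM in HFD peritumoral fat, against 8.04, 8.1, 8.65 and 8.09 CPM in HFD no-tumor fat. On Chow, Kcna1 had 26.4, 22.9, 19.8 and 15.5 CPM in peritumoral fat, against 9.23, 9.38, 9.51 and 13.1 CPM in no-tumor fat. Neither pair of groups overlapped, and the interaction was -2.47 ± 0.31, with an HFD effect of -1.42 ± 0.23 and a Chow effect of 1.04 ± 0.21 (adjusted p = 0.0397). Rbm4, an RNA-binding protein that directs splicing and shares sequence with its neighbour Rbm4b, had 7.18, 8.0, 8.2 and 9.39 CPM in HFD peritumoral fat, against 13.9, 13.8, 10.9 and 12.1 CPM in HFD no-tumor fat. On Chow, Rbm4 had 22.5, 18.9, 19.6 and 26.8 CPM in peritumoral fat, against 13.6, 13.6, 12.7 and 14.3 CPM in no-tumor fat. The pairs did not overlap here either, with an interaction of -1.32 ± 0.17, and Rbm4b had one of -1.06 ± 0.14. Rapgef5, an activator of Rap GTPases, had an HFD effect of -0.47 ± 0.09 and a Chow effect of 0.54 ± 0.10. Cldn19, a tight-junction protein of myelinating Schwann cells, had an HFD effect of -0.98 ± 0.31 and a Chow effect of 1.67 ± 0.30 at levels under 3 CPM, so its counts were low. The Chow calls depended on single libraries: Kcna1, Rapgef5, Rbm4 and Slc4a8 each kept theirs in 5 of the 16 fits without 1 library, Cldn19 in 8 and Neat1 in 12, with no change of direction, and of the 6 only Neat1 kept its Chow call with the replicate block, while the interactions of all 6 kept their call under every alternative run. The HFD call of Slc4a8 was lost under 17 of 26 alternatives and that of Cldn19 under 3.

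Lower genes close to that pattern, without a called Chow effect, were Kalrn, Apex2, Pln and Gabbr1. Kalrn, an exchange factor for small GTPases, had 11.8, 10.01, 14 and 11.1 CPM in HFD peritumoral fat, against 27.6, 24.8, 23 and 23.3 CPM in HFD no-tumor fat. On Chow, Kalrn had 26.9, 18.6, 22.9 and 15.9 CPM in peritumoral fat, against 13.7, 14.1, 14.8 and 14.1 CPM in no-tumor fat. Chow peritumoral libraries lay above Chow no-tumor libraries, with a Chow effect of 0.58 ± 0.14 (adjusted p = 0.0651) and an interaction of -1.65 ± 0.19. Apex2, a nuclease of DNA repair, Pln, which restrains the calcium pump of muscle, and Gabbr1, a subunit of the GABA B receptor, had interactions of -1.20 ± 0.15, -1.88 ± 0.25 and -1.13 ± 0.15. For Spaca6 and Glt28d2 the interactions were -1.001 ± 0.13 and -1.90 ± 0.27, with HFD peritumoral libraries below the other 12.

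A few genes were called on both diets in the same direction, and none of these had a called interaction by edgeR. There were 14, chosen here after their values were seen. Scand1, a zinc-finger family protein without the fingers, had 1.53, 1.32, 0.778 and 0.723 CPM in HFD peritumoral fat, against 4.96, 4.37, 6.73 and 9.4 CPM in HFD no-tumor fat. On Chow, Scand1 had 0.765, 0.998, 0.56 and 0.956 CPM in peritumoral fat, against 5.78, 5.12, 5.68 and 8.27 CPM in no-tumor fat. Both peritumoral groups lay below both no-tumor groups, with effects of -2.53 ± 0.29 on HFD and -2.94 ± 0.31 on Chow and an interaction of 0.41 ± 0.43 (adjusted p = 0.519). It was the 1 Chow call of 50 that held without any 1 of the 16 libraries. Slc10a6, a steroid sulfate transporter, rose on both, with 11.1, 9.55, 12.8 and 12 CPM in HFD peritumoral fat, against 6.33, 4.95, 4.39 and 6.49 CPM in HFD no-tumor fat. On Chow, Slc10a6 had 12.2, 10.1, 13.8 and 12.8 CPM in peritumoral fat, against 5.71, 4.55, 5.22 and 7.75 CPM in no-tumor fat. Its effects were 1.03 ± 0.17 on HFD and 1.07 ± 0.17 on Chow; the Chow call was lost in 3 of the 16 fits without 1 library.

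Circadian clock genes were called in both directions on HFD, and tissue collection times are not given in the sources used here. Of 19 genes 3 were higher and 7 lower in the interaction, and the 10 calls fell to 6 without HFD no-tumor 2, to 5 without Chow peritumoral 1 and to 6 without Chow no-tumor 1. Per3, a repressor of the clock, had 69.7, 33, 55.4 and 37.7 CPM in HFD peritumoral fat, against 126, 128, 139 and 133 CPM in HFD no-tumor fat. On Chow, Per3 had 101, 96.3, 94 and 68.9 CPM in peritumoral fat, against 90.6, 106, 89.1 and 80.6 CPM in no-tumor fat. HFD no-tumor libraries were the 4 highest, and 3 of the 4 HFD peritumoral libraries were below every library of the other groups, with an interaction of -1.40 ± 0.26 (adjusted p = 0.00293). Per2 and Hlf, an output factor of the clock, had interactions of -1.31 ± 0.23 and -1.28 ± 0.31. Nfil3, which represses the targets of Hlf, had 6.3, 13.6, 10.4 and 10.7 CPM in HFD peritumoral fat, against 3.61, 3.41, 3.34 and 3.93 CPM in HFD no-tumor fat. On Chow, Nfil3 had 8.28, 7.84, 10.8 and 12.1 CPM in peritumoral fat, against 7.97, 8.81, 9.18 and 7.68 CPM in no-tumor fat. HFD no-tumor libraries were the 4 lowest, and the interaction was 1.32 ± 0.27. Arntl, the positive arm of the clock, rose on HFD without a called interaction. Phase was not tested.

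Genes of creatine metabolism, which the series title concerns, were called in part. The list of 12, all tested, also holds the arginine and ornithine enzymes Arg1, Arg2, Odc1 and Oat. In the interaction 2 members were higher (Gatm and Odc1) and 3 lower (Ckmt1, Alpl and Arg2), against 9.75% and 10.9% of all genes tested. The calls of Odc1 and Arg2 are thus not calls of creatine enzymes. The 5 calls ran from 1, without Chow peritumoral 1, to 5 over the fits without 1 library. Gatm, the mitochondrial enzyme that makes guanidinoacetate, the first step of creatine synthesis (chr2:122594467-122611303 on mm10), had 12.2, 37.3, 24.4 and 36.4 CPM in HFD peritumoral fat, against 9.75, 5.98, 8.9 and 8.21 CPM in HFD no-tumor fat. On Chow, Gatm had 9.81, 12.1, 13 and 14.8 CPM in peritumoral fat, against 9.35, 6.32, 9.31 and 7.68 CPM in no-tumor fat. HFD peritumoral libraries exceeded HFD no-tumor libraries, HFD peritumoral 1 being nearest to them, and Chow peritumoral libraries exceeded Chow no-tumor libraries by a small margin. The HFD effect was 1.74 ± 0.28 (adjusted p = 0.000282) and the Chow effect 0.60 ± 0.28 (adjusted p = 0.261). The interaction of 1.15 ± 0.39 stood at the threshold (adjusted p just under 0.05) and lost its call under 16 of 25 alternatives, among them each fit without 1 library except those without HFD peritumoral 1, Chow peritumoral 4 or Chow no-tumor 2, with values between 0.97 and 1.40. Gamt, which methylates guanidinoacetate to creatine, had 9.65, 9.32, 6.77 and 9.27 CPM in HFD peritumoral fat, against 10.8, 11.9, 13.4 and 15.1 CPM in HFD no-tumor fat. On Chow, Gamt had 3.96, 5.42, 6.09 and 4.66 CPM in peritumoral fat, against 5.96, 10.6, 6.14 and 5.54 CPM in no-tumor fat. It fell on HFD (-0.55 ± 0.19, adjusted p = 0.031), its Chow effect was -0.48 ± 0.21, and the interaction of -0.07 ± 0.28 was not called (adjusted p = 0.884). The creatine transporter Slc6a8 had 23.8, 40.7, 27.2 and 32.8 CPM in HFD peritumoral fat, against 25.5, 24.4, 27.9 and 27.6 CPM in HFD no-tumor fat. On Chow, Slc6a8 had 26.9, 23.6, 25.5 and 23.1 CPM in peritumoral fat, against 24.4, 20.6, 24.8 and 22.2 CPM in no-tumor fat. Its groups overlapped on both diets, with an interaction of 0.13 ± 0.18 (adjusted p = 0.639). Among the kinases that store phosphate on creatine, the cytosolic Ckb had an interaction of 0.26 ± 0.20 (adjusted p = 0.383), and the mitochondrial Ckmt1, at 0.48 to 3.07 CPM, one of -1.82 ± 0.48 (adjusted p = 0.015). Ckm and Ckmt2 are genes of striated muscle, and Ckm ranged from 0 to 10.6 CPM in HFD peritumoral, 0 to 0.0643 in HFD no-tumor, and on Chow 0.836 to 106.5 in peritumoral and 0 to 54.9 in no-tumor libraries. That spread followed single libraries, as did the sum of skeletal muscle genes (56.7 to 349, 74.6 to 93.4, 73.6 to 3340 and 49.3 to 1360 CPM in the same order), and neither gene was called. Odc1, which makes putrescine from ornithine, had 31.6, 168, 78.1 and 119 CPM in HFD peritumoral fat, against 16.1, 14.7, 16.2 and 14.7 CPM in HFD no-tumor fat. On Chow, Odc1 had 16.3, 17.8, 26.8 and 48.5 CPM in peritumoral fat, against 17.2, 16.8, 16.5 and 19.3 CPM in no-tumor fat. The interaction was 2.06 ± 0.60 (adjusted p = 0.0276), with the call lost under 5 of 25 alternatives, and Arg1, which makes that ornithine, rose on HFD (4.03 ± 0.86), with an interaction of 1.52 ± 1.18 (adjusted p = 0.377) that was called under 1 of the 25 alternatives, without Chow peritumoral 3 and 4 together (4.11, adjusted p = 0.00537). Oat, the other ornithine enzyme of the list, had an interaction of 0.14 ± 0.13 (adjusted p = 0.443). Alpl and Arg2 had interactions of -0.92 ± 0.27 and -0.95 ± 0.31, with the calls lost under 4 and 16 of 25 alternatives.

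Several metabolic lists had few or no called interactions by edgeR, which is no sign that the diets acted alike. Of 18 mature adipocyte genes 13 fell on HFD and none had a called interaction, with a median HFD effect of -0.60, a median Chow effect of -0.32 and a median interaction of -0.22; 1 had an unadjusted p under 0.05, DESeq2 called none and limma voom 4, and edgeR called 5 without HFD peritumoral 1 and 1 without Chow no-tumor 2. Of 17 genes of branched-chain amino acid breakdown 13 fell on HFD and 1, Bcat1, rose, with median effects of -0.51 on HFD and -0.18 on Chow. None had a called interaction by edgeR or DESeq2, 2 had an unadjusted p under 0.05, limma voom called 5, and edgeR called 6 without HFD peritumoral 1 and 2 without Chow peritumoral 3 and 4 together. Oxidative phosphorylation genes had 1 of 28 higher in the interaction, Cox7b (3 without Chow peritumoral 2 or Chow no-tumor 1, and 2 without Chow peritumoral 4, Chow no-tumor 4 or Chow peritumoral 3 and 4 together), with median effects of -0.21 on HFD and -0.40 on Chow. On Chow 2 of them were called by edgeR, 21 had an unadjusted p under 0.05 and DESeq2 called 16. Fatty acid synthesis genes had 3 of 21 lower in the interaction (Lpin1, Pnpla3 and Mlxipl), near the 10.9% of all genes tested. That count ran from 1 to 6 over the fits without 1 library.

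**Figure D4:**
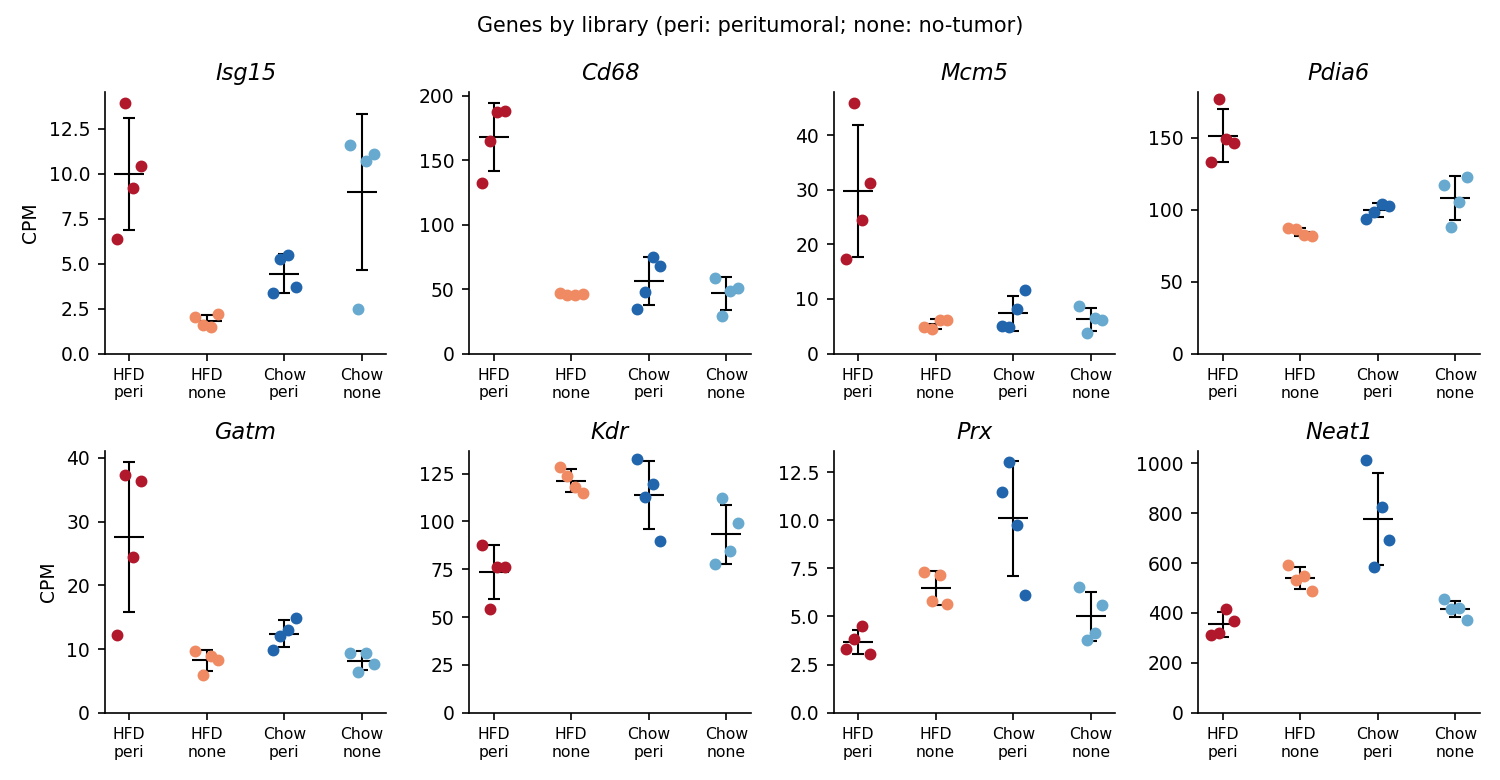
CPM of 8 genes in each of the 16 libraries, with the mean and SD of each group of 4 in black. Cd68, Mcm5 and Pdia6 are highest in the 4 HFD peritumoral libraries, Isg15 is lowest in HFD no-tumor libraries, Kdr and Prx fall on HFD, Neat1 parts in opposite directions on the diets, and Gatm reaches 12.2 to 37.3 CPM in HFD peritumoral against 5.98 to 9.75 CPM in HFD no-tumor libraries.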

How the data were processed

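Total RNA from flash-frozen subcutaneous fat was treated with DNase and depleted of ribosomal RNA before sequencing, per the labels' protocols. The authors deposited raw counts per gene as a table of 39017 genes by 24 libraries; the submitters' processing notes name mm10, TopHat and DESeq, without versions. The counting tool and its strand setting are not given in the sources used here, and counts of genes that overlap are uncertain. Of the 39017 genes, 37607 had a symbol and 1410 did not. Gene positions are those of the deposited table, and gene types are from GENCODE.

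Samples were grouped by their titles. The 16 libraries of the comparison were fitted together, with 1 mean per group, by the robust quasi-likelihood test of edgeR 4.0.16 under R 4.3.3, with TMM scaling. Genes passed a filter at 10 counts (total 15), and p-values were adjusted over the 16744 that passed by Benjamini-Hochberg, with a threshold of 0.05. The SE is the size of the log2 difference divided by the root of its F. Total counts were 9.13 to 18.2 M per library. Replicate libraries differed by more than sampling noise in all 24 pairs. The named genes are all 12 of the creatine list, the 14 with the lowest adjusted p in each direction among called genes of at least 1 on the log2 scale and 5 CPM in a group (placeholder symbols left out), and, of each list with at least 3 called members, the 4 with the lowest adjusted p. Other list members named were chosen after their values were seen. Some genes that the rule takes are not reported here. The comparison and the lists were chosen with earlier results of these data known, so no list was tested as a set. Alternatives were DESeq2 1.42.0, limma 3.58.1 voom with sample weights, other scaling, other filters, all 24 libraries, a replicate block, each diet on its own, each library left out, and, chosen after the data were seen, Chow peritumoral 3 and 4 left out together. The fit was tested on simulated counts.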

Additional observations from a re-analysis of the deposited data

Results flagged for a closer look

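Each of 464 groups of 4 libraries (the named genes and the library measures) was examined for a highest or lowest library whose gap to the nearest of the others took more of the group's range than Dixon's limit allows. This held in 30 groups, or 6.47%, where chance gives about 5%. HFD peritumoral 1 lay away from the other 3 libraries of its group for Csf3r at 13.93 CPM (others 24.17 to 24.81). HFD peritumoral 2 stood apart for Ckm at 10.59 CPM (others 0 to 0.2395), Ckmt2 at 0.8055 CPM (others 0 in each) and Srebf2 at 82.34 CPM (others 42.49 to 46.58). HFD peritumoral 3 lay away from the other 3 libraries of its group for Gamt at 6.766 CPM (others 9.273 to 9.649), Ly6a at 208.2 CPM (others 180.7 to 183.3) and Hbb-bs at 368.2 CPM (others 232.5 to 251). HFD no-tumor 1 lay away from the other 3 libraries of its group for Oat at 88.31 CPM (others 94.87 to 95.52) and mitochondrial ribosomal RNA share at 20.54% (others 21.9 to 22.01). HFD no-tumor 2 stood apart for Ckm at 0.06427 CPM (others 0 in each). HFD no-tumor 3 lay away from the other 3 libraries of its group for Kcna1 at 8.649 CPM (others 8.039 to 8.098), Pln at 4.634 CPM (others 6.249 to 6.427) and Lpin1 at 349.3 CPM (others 428.7 to 433). HFD no-tumor 4 stood apart for Ckmt1 at 1.25 CPM (others 2.78 to 3.074) and Hif1a at 142.4 CPM (others 122.4 to 125.8). Chow peritumoral 1 lay away from the other 3 libraries of its group for Alpl at 20.45 CPM (others 14.09 to 14.89) and Timp3 at 341.4 CPM (others 263.1 to 270.5). Chow peritumoral 2 stood apart for Ckm at 106.5 CPM (others 0.8361 to 12.25) and Ckmt2 at 2.423 CPM (others 0.3583 to 0.6219). Chow peritumoral 3 lay away from the other 3 libraries of its group for Dhx58 at 19.4 CPM (others 12.03 to 13.25). Chow no-tumor 1 lay away from the other 3 libraries of its group for Rbm4b at 50.28 CPM (others 58.31 to 59.14) and Malat1 at 7819 CPM (others 8724 to 8819). Chow no-tumor 2 stood apart for Isg15 at 2.487 CPM (others 10.7 to 11.61), Apex2 at 24.72 CPM (others 17.26 to 18.29), Gamt at 10.59 CPM (others 5.536 to 6.141), Fdps at 16.48 CPM (others 7.281 to 8.056) and Col1a2 at 960.3 CPM (others 1302 to 1362). Chow no-tumor 3 lay away from the other 3 libraries of its group for Ckm at 54.87 CPM (others 0 to 5.542). Chow no-tumor 4 stood apart for Kcna1 at 13.09 CPM (others 9.227 to 9.509) and Lgals3 at 48.26 CPM (others 60.68 to 63.02). Chow no-tumor 2 had the most such values, 5, and Chow peritumoral 4 had none. Ckm and Ckmt2 are genes of striated muscle, and Ckm was set apart in 1 library of each group.

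The peritumoral difference itself differed between diets, by the interaction test, in 3456 genes. In 6 of these both effects were called and ran in opposite directions, with interactions of -2.65 for Cldn19, -2.47 for Kcna1, -1.001 for Rapgef5, -1.75 for Slc4a8, -1.32 for Rbm4 and -1.51 for Neat1 on the log2 scale.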

How the results depend on the processing

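Counts within 1.5 times of those reported were obtained for the interaction under every alternative but these. Limma voom called 5255 interaction genes, 2619 of them higher, and a fit of all 24 libraries called 2596 higher. Over the 16 fits without 1 library the interaction ran from 2258 to 4785 genes, from 1061 to 2677 higher and from 1197 to 2441 lower, with 1210 and 1208 lower without Chow no-tumor 1 and 4. The higher share of calls was 47.2%, against 58.6% without Chow peritumoral 4, 57.9% without Chow no-tumor 2 and 55.5% with all 24 libraries, while the median interaction of all genes stayed between -0.06 and 0.04. The HFD effect was called for 5499 to 8018 genes without 1 library.

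The Chow effect was the unstable count. It was called for 50 genes, for 833 by DESeq2, 821 with all 24 libraries, 379 by limma voom, 21 with Chow libraries on their own, 0 without Chow peritumoral 3 and 4 together, and 1 to 410 without 1 library; 0 of the 50 changed direction under an alternative. The cause was not tested.

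Of 107 called interactions of named genes, 85 kept their call under every alternative, 22 lost it under at least 1 and 0 reversed. Those that reversed were not called in any fit: Gamt (from -0.27 to 0.088 without 1 library, and 0.046 without Chow peritumoral 3 and 4), Slc6a8 (from -0.021 to 0.243 without 1 library), Ckm (-0.457 by limma voom) and Ckmt2 (from -5.02 to 0.70 without 1 library). Of 105 called HFD effects, 100 kept their call and 0 reversed.

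Replicate numbers are shared between groups. Libraries with the same number deviated together little, with correlations from -0.074 to 0.331 over 24 pairs, a median of 0.0425 and 7 over 0.1. Over 72 pairs with different numbers they ran from -0.297 to 0.302, with a median of -0.011 and 13 over 0.1. Of 16 libraries 6 correlated best with their own number. No label says that the numbers link libraries, and they were not taken as pairs. With the replicate block the interaction was called for 3345 genes, 3110 of them shared with the 3456, and the Chow effect for 7. Chow peritumoral libraries were the shallowest, at 9.13 to 14.46 M counts, which limits low-count genes such as Cldn19 and Ckmt1 most there.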
